A study of Homo sapiens with 8 samples.

Results

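The 7 genes NPPB, CXCR4, GJA5, CMKLR2, SERPINA9, PTPRQ and CDK18, of 54628 in the count table, had next to no reads in untreated proliferating lung fibroblasts and were expressed wherever an active form of the transcriptional co-activator YAP had been induced. They were chosen by their counts, near 0 in untreated proliferating cells and expressed in both induced groups, so the pattern itself is a description of the choice and not a finding. The rule of choice did not use the level in senescent cells without induction or the order of the 2 induced groups. The genes were, however, chosen with earlier results of these data known.

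All 8 libraries came from IMR90, a human lung fibroblast line, carrying hTERT (the catalytic subunit of telomerase) and pInducer20 with an N-terminally Flag-tagged YAP5SA, a YAP in which the serines that the Hippo kinases phosphorylate are replaced by alanine. Proliferating cells were left untreated or received doxycycline, the drug that switches on the transgene, at 1 µg/ml for 11 days. Senescent cells had been exposed to the DNA-damaging agent bleomycin at 10 µg/ml for 24 h and were taken 9 days later, without doxycycline or with it at 1 µg/ml over the last 11 days. Doxycycline thus began before bleomycin. The phrase doxycycline in senescent cells names a comparison of groups here and not induction in cells that were already senescent. Each of the 4 groups held 2 libraries, and the controls carried the transgene too. Cells given doxycycline but lacking the transgene were not analysed here, so the drug and the transgene cannot be told apart. The labels do not say whether the 2 libraries of a group were separate cultures, and the p-values then measure only the spread between these libraries.

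YAP and its paralogue TAZ do not bind DNA themselves but sit on TEAD factors, which recognise short GGAATG-like elements, and switch on genes such as ANKRD1 and CCN2. Hippo signalling holds YAP in the cytoplasm, and the serine-to-alanine form escapes that control. The 7 genes belong to unrelated families and are usually described in other cells: NPPB encodes B-type natriuretic peptide, a hormone of stressed heart muscle; CXCR4 is the receptor of the chemokine CXCL12 on leukocytes and endothelial tip cells; GJA5 is connexin 40, a gap-junction subunit of atrium and arterial endothelium; CMKLR2, formerly GPR1, is a receptor for the adipokine chemerin; SERPINA9, or centerin, is a protease inhibitor of germinal-centre B cells; PTPRQ is a receptor-type phosphatase of inner-ear hair-cell bundles; and CDK18 is a PCTAIRE kinase related to the cyclin-dependent kinases.

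Because YAP acts through TEAD factors, often beside AP-1, the RefSeq promoter windows (GRCh38.p14, 250 bases before to 50 after each start) are shown for those that held a searched motif. Windows were present for 5 of the 7 genes, 8 windows in all, and NPPB and PTPRQ had no entry. The TEAD core was searched as GGAATG on both strands. For AP-1, the site bound by the FOS and JUN factors, the letters searched on both strands were TGANTCA. The TATA box, where the basal machinery settles on some promoters, was searched likewise as TATAAA. After the SERPINA9 window had been read, the octamer ATTTGCAT, the element bound by POU factors including those of B cells, was added. Sequences run 5′ to 3′ along the gene, with matches in capitals.
CMKLR2, chr2:206213322-206213621, minus strand: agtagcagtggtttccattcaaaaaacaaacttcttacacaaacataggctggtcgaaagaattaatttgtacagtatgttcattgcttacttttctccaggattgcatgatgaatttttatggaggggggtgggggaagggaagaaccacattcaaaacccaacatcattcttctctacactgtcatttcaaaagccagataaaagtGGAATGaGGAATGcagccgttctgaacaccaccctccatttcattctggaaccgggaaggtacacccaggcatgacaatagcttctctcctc
GJA5, second promoter, chr1:147760553-147760852, minus strand: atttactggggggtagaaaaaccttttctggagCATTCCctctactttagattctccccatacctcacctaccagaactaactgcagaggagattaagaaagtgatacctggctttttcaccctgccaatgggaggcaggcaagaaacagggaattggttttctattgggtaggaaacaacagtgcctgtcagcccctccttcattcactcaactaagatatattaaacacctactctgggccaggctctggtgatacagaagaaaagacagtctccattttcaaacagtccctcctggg
CXCR4, first promoter, chr2:136118100-136118399, minus strand: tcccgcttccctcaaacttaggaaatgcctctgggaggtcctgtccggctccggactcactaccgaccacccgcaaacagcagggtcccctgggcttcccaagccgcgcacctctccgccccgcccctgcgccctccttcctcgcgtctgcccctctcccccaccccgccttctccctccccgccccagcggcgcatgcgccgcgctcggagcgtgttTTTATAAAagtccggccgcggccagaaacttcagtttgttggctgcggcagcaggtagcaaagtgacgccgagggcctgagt
SERPINA9, chr14:94476148-94476447, minus strand: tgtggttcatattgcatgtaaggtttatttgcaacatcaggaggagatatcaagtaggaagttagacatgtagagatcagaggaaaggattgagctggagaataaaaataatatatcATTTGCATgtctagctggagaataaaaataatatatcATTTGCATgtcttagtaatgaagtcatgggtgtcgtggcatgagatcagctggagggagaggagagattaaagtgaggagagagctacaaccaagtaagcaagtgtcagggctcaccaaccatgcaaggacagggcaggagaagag
The CMKLR2 window held the TEAD core 2 times in the same orientation, starting 42 and 35 bases before the start. GJA5 held it 1 time, on the other strand (CATTCC), 217 bases before the start of its second promoter. Over all 35116 windows of the table, 14.0% held the TEAD core in either orientation. The AP-1 letters were in none of the 8 windows, against 7.71% of all windows. CXCR4 had TATAAA 30 bases before its first start, overlapping the same motif on the other strand (TTTATA, 32 bases before), and 11.5% of all windows held one. In SERPINA9 the octamer occurred 2 times, 133 and 96 bases before the start, and 1.77% of all windows held it. A match of this kind is a run of letters and not a measured binding site. No searched motif was in the windows of CDK18, the first GJA5 promoter, or the other two CXCR4 promoters.

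The libraries held between 33627708 and 39692162 counts. YAP1, whose reads combine the native gene and any reads of the transgene, was at 196 ± 1.69 CPM (mean ± SD, n = 2; CPM is a gene's count per 1000000 counts of the scaled library total) in untreated proliferating cells, 214 ± 34.0 with doxycycline, 207 ± 23.4 in senescent cells and 288 ± 2.82 after both treatments. Its change with doxycycline passed the test in senescent cells (log2 0.48, SE 0.10, adjusted p = 0.00140, edgeR) and not in proliferating cells (log2 0.12, SE 0.10, adjusted p = 0.431, edgeR). ANKRD1, a known YAP target, was at 3.38 ± 0.429, 271 ± 7.95, 83.1 ± 16.2 and 836 ± 20.6 CPM in the same order. CCN2, the other target named above, was at 785 ± 1.33, 822 ± 28.3, 835 ± 50.9 and 1788 ± 16.7 CPM. The change of CCN2 with doxycycline did not pass the test in proliferating cells (log2 0.07, SE 0.09, adjusted p = 0.632, edgeR). In senescent cells it did (log2 1.10, SE 0.09, adjusted p = 7.10e-08, edgeR). Of the 30 tested genes in the list of YAP targets and TEAD partners, 13 rose and 5 fell with doxycycline in proliferating cells, and 16 rose and 8 fell in senescent cells (19 and 5 when scaled by total counts), where 12.6% and 10.4% of all tested genes rose and fell in the first comparison and 22.6% and 23.8% in the second; 2-sided tests in edgeR with Benjamini-Hochberg adjustment at 0.05 over 17155 genes are meant here and below. The list of YAP targets and TEAD partners included YAP1 itself. YAP1 was among the genes called higher in senescent cells, and its reads may include the transgene. Mitochondrial reads made up 3.31 to 3.82% of counts in senescent cells with doxycycline and 5.59 to 7.05% in the other 6 libraries. All 12 fibroblast markers were at 1 CPM or more in every group. Their summed level was lower with doxycycline: 34541 and 34132 CPM against 22855 and 23940 in proliferating cells, and 39845 and 42916 CPM against 23000 and 27986 in senescent cells. The single markers were mixed. In senescent cells COL1A1, COL1A2, COL3A1, COL6A3, PDGFRB, THY1 and FAP were called lower with doxycycline. LUM (55.5 to 203 CPM as group means) and DCN (458 to 544 CPM) were called higher there. PDGFRA, VIM and FN1 were not called in that comparison. In proliferating cells LUM alone was called higher. The part of the difference in summed level in the results below was not tested.

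**Figure D1:**
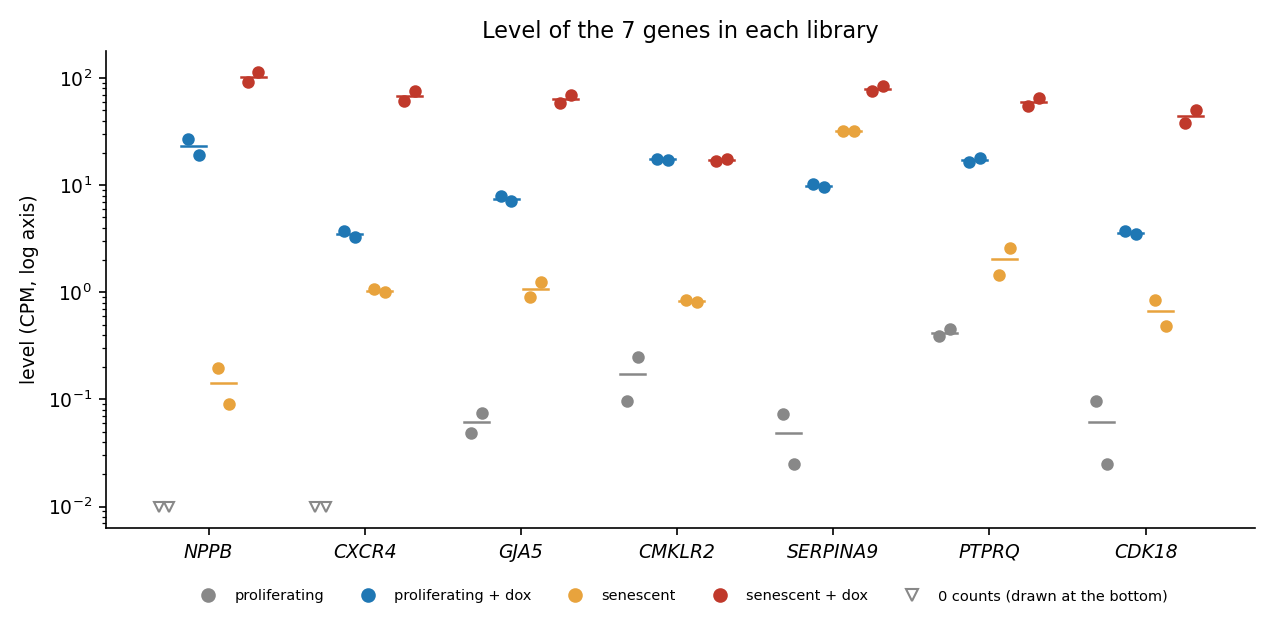
Level of each of the 7 genes in each library, in CPM on a log axis, by group; points are libraries, bars are group means, and open triangles stand for 0 counts. In untreated proliferating cells no library exceeds 0.451 CPM, while in both doxycycline groups every library lies above 3 CPM.

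NPPB, on chr1:11857464-11858945 (RefSeq, GRCh38.p14, as for all coordinates here), encodes a secreted peptide that relaxes vessels and promotes salt loss through the receptor NPR1. Neither untreated proliferating library had a single NPPB read, which allows up to 0.0371 CPM (3 counts over the group; counting error only). With doxycycline the libraries stood at 27.0 and 19 CPM, at least 610.3-fold higher. Senescent cells without the drug were near the floor, with 7 and 3 counts (0.196 and 0.0912 CPM), so that bleomycin alone left this gene almost unread. With both treatments NPPB reached 91.2 and 112.8 CPM. The step from senescent to senescent with doxycycline was 685-fold (95% interval of the fit 431 to 1088, log2 9.42, SE 0.34, adjusted p = 3.85e-07, edgeR). The choice asked for expression in both induced groups, so p-values here and for the genes below describe them and do not support it. The ratio of counts was 697 with a wider 95% counting interval, 379 to 1454. The 2 induced groups differed 4.45-fold in favour of senescent cells (log2 2.15, SE 0.18, adjusted p = 2.95e-05, edgeR). No 2 groups overlapped.

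CXCR4, on chr2:136114349-136118149, encodes a G-protein-coupled receptor that steers cells along CXCL12. It too had 0 reads in both untreated proliferating libraries. Doxycycline brought it to 3.74 and 3.28 CPM there, at least 94.0-fold higher, and senescent cells without doxycycline had 1.06 and 1.00 CPM. Both treatments together gave 60.9 and 76.2 CPM. Against senescent cells this was 66.0-fold (log2 6.05, SE 0.16, adjusted p = 2.75e-12, edgeR), and against proliferating cells with doxycycline 19.6-fold (log2 4.29, SE 0.14, adjusted p = 3.03e-12, edgeR), the largest difference between the induced groups among the 7 genes.

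GJA5, on chr1:147756199-147773351, forms channels that pass current and small molecules between coupled cells. It had 2 and 3 counts in untreated proliferating cells (0.0488 and 0.0751 CPM) and 7.88 and 7.11 CPM with doxycycline, a count ratio of 121 (95% counting interval 51.4 to 373). In senescent cells it stood at 0.896 and 1.25 CPM, and with doxycycline at 58.4 and 70.1 CPM. The groups kept the same order as for CXCR4. Doxycycline in senescent cells gave a 60.1-fold rise (log2 5.91, SE 0.16, adjusted p = 1.27e-12, edgeR), and senescent cells with doxycycline exceeded proliferating cells with it 8.58-fold (log2 3.10, SE 0.12, adjusted p = 1.17e-11, edgeR).

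CDK18, on chr1:205504669-205532790, encodes a serine-threonine kinase of the PCTAIRE branch that works with cyclins outside the core cell-cycle engine. Untreated proliferating libraries had 4 and 1 counts (0.0976 and 0.0250 CPM), and doxycycline brought 3.71 and 3.47 CPM, a count ratio of 57.9 (24.5 to 179.7). Senescent libraries had 0.840 and 0.486 CPM, and those with doxycycline 37.9 and 50.7 CPM. CDK18 thus followed CXCR4 and GJA5: low with either treatment, high with both. The rise with doxycycline in senescent cells was 65.9-fold (log2 6.04, SE 0.22, adjusted p = 9.47e-11, edgeR) and the excess over proliferating cells with doxycycline 12.4-fold (log2 3.63, SE 0.18, adjusted p = 5.11e-10, edgeR).

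PTPRQ, on chr12:80444235-80680273, is a membrane phosphatase that also acts on phosphoinositides. It was the least silent of the set, with 16 and 18 counts in untreated proliferating cells (0.390 and 0.451 CPM). Doxycycline gave 16.6 and 17.8 CPM, a count ratio of 41.0 (29.2 to 59.4). Senescent cells had 1.46 and 2.61 CPM without doxycycline and 54.5 and 64.7 CPM with it, and the 4 groups did not overlap. The changes were 29.5-fold with doxycycline in senescent cells (log2 4.88, SE 0.18, adjusted p = 2.07e-10, edgeR) and 3.47-fold between the induced groups (log2 1.79, SE 0.14, adjusted p = 1.57e-07, edgeR).

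SERPINA9, on chr14:94462721-94476197, was the one gene of the 7 whose level after bleomycin alone exceeded that after doxycycline alone. It had 3 and 1 counts in untreated proliferating cells, 10.3 and 9.56 CPM with doxycycline (count ratio 200.1, 77.8 to 736) and 31.8 and 32.0 CPM in senescent cells (count ratio to untreated proliferating cells 645, 251 to 2368). The senescent level was 3.21 times that of proliferating cells with doxycycline. With both treatments the libraries stood at 75.8 and 83.7 CPM. Doxycycline in senescent cells gave the smallest rise of the 7, 2.50-fold (95% interval 2.21 to 2.83; log2 1.32, SE 0.09, adjusted p = 1.65e-08, edgeR). The induced groups differed 8.04-fold (log2 3.01, SE 0.10, adjusted p = 1.64e-12, edgeR).

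CMKLR2, on chr2:206175316-206217912, differed from the other genes of the set in that its 2 induced groups overlapped. It had 4 and 10 counts in untreated proliferating cells (0.0976 and 0.250 CPM) and 17.7 and 17.1 CPM with doxycycline, a count ratio of 100.4 (59.6 to 184). Senescent cells had 0.840 and 0.820 CPM, and those given the drug 16.8 and 17.7 CPM. The ratio of senescent to proliferating cells with doxycycline was 0.993 with a 95% interval of 0.833 to 1.19 (log2 -0.01, SE 0.13, adjusted p = 0.959, edgeR). The rise with doxycycline in senescent cells was 20.7-fold (log2 4.37, SE 0.18, adjusted p = 5.84e-11, edgeR).

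Set side by side, doxycycline in proliferating cells went with higher counts for 7 of 7 genes, a count that the choice fixed (12.6% of all tested genes were called higher and 30.4% were higher with no overlap). In senescent cells, whose uninduced level the rule of choice did not use, 7 of 7 rose with no overlap between groups, where 22.6% of tested genes were called higher and 36.5% were higher with no overlap. The choice did ask the induced senescent arm to be expressed, which bears on that count and on the p-values given for each gene. The median log2 change of the 7 was 5.91, and that of all tested genes -0.00382. Between the induced groups 6 of 7 were higher in senescent cells, all with no overlap, against 26.8% of tested genes called higher and 37.8% higher with no overlap, with a median of 3.01 against -0.00647 over all genes. All 7 passed the filter on low counts, and they could pass through the induced groups alone. These counts, and the p-values of each of the 7, therefore describe the 7 and do not support the choice. The 2 comparisons share the senescent libraries with doxycycline and are not independent.

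**Figure D2:**
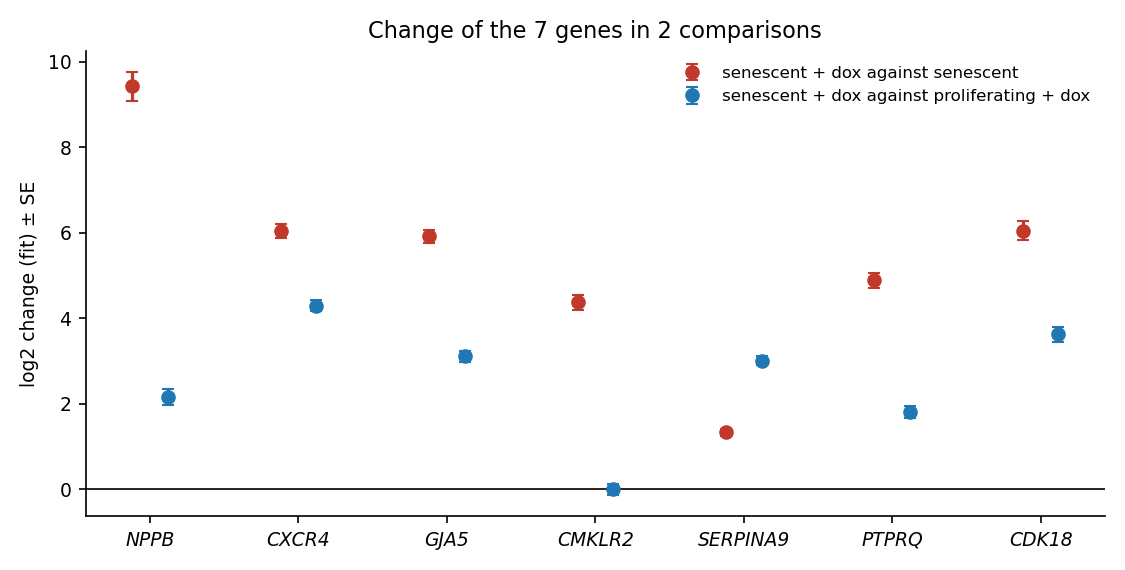
Log2 change of each of the 7 genes (± SE of the fit over 8 libraries) with doxycycline in senescent cells, in red, and between senescent and proliferating cells that both received doxycycline, in blue. The red values run from 1.32 for SERPINA9 to 9.42 for NPPB, and the blue value of CMKLR2 lies at -0.01.

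Bleomycin without doxycycline left most of the 7 low. Relative to untreated proliferating cells the counts were at least 3.93-fold higher for NPPB and at least 27.9-fold for CXCR4, and the count ratios were 17.2 (7.05 to 54.6) for GJA5, 10.8 (4.33 to 35) for CDK18, 4.80 (2.64 to 9.33) for CMKLR2 and 4.79 (3.27 to 7.19) for PTPRQ. Because the genes were chosen for a near-0 level in the group they are set against, the ratios are given as a description with no test. In every one of the 7 genes both senescent libraries exceeded both untreated proliferating libraries, as did 40.7% of all tested genes. Only CXCR4, SERPINA9 and PTPRQ were at 1 CPM or more in both senescent libraries, and GJA5 was so in 1 of 2.

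The level with both treatments was next divided by the sum of the levels under each treatment alone, a measure chosen after the values were seen. CXCR4 with both treatments reached 15.1 times that sum (13.4 and 16.8 in the 2 libraries), CDK18 10.4 times (8.91 and 11.9) and GJA5 7.5 times (6.82 and 8.18). NPPB came to 4.41 times (3.94 and 4.87), PTPRQ to 3.10 times (2.84 and 3.37) and SERPINA9 to 1.91 times (1.81 and 2.0). For CMKLR2 it was 0.948 (0.923 and 0.973), close to the level under doxycycline alone. The other 6 thus exceeded the sum in both libraries. By group means, so did 28 of the 34 genes that were silent and then on by the fixed level given below. Those 34 include 5 of the 7, and the share over all genes was not counted. The ratios of CDK18 in its libraries (8.91 and 11.9) lay farther from each other than from the nearest value of GJA5 (8.18). The library values divide by group means and leave out the spread of the singly treated groups, and the ratio is a description on the linear CPM scale with no test.

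**Figure D3:**
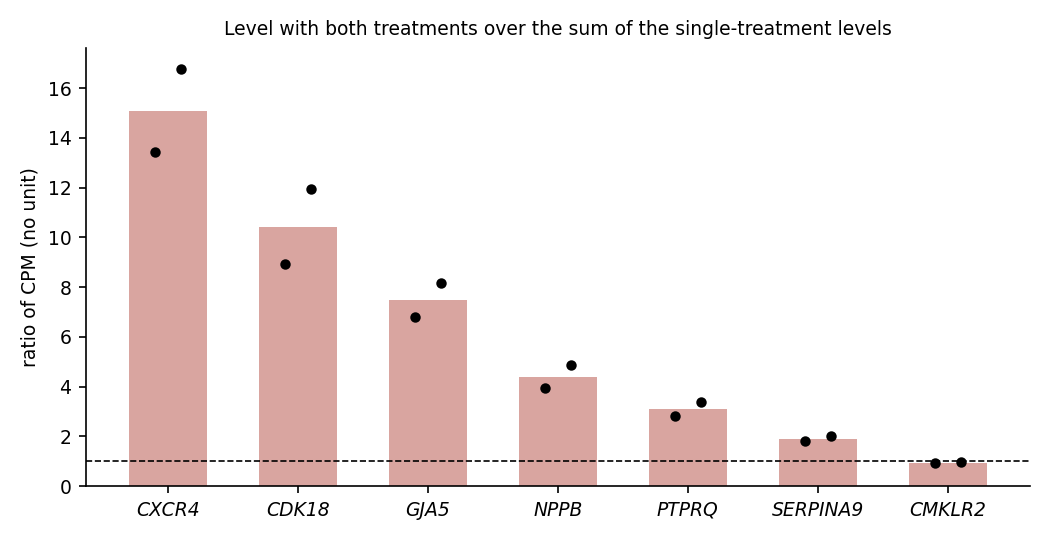
CPM in senescent cells with doxycycline divided by the sum of the mean CPM of proliferating cells with doxycycline and of senescent cells without it; bars use the mean of the 2 libraries, points show each library, and the dashed line marks a ratio of 1. CXCR4 is highest at 15.1 and CMKLR2, at 0.948, lies under the line.

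Per kilobase of annotated exon (GENCODE v29), which allows levels of different genes to be compared, NPPB was the highest of the 7 with both treatments at 147.0 ± 22.0 CPM per kb. SERPINA9 (31.1 ± 2.21) and CXCR4 (30.8 ± 4.86) followed and did not differ beyond their spread. GJA5 came next at 19.5 ± 2.51 CPM per kb. CDK18 (6.49 ± 1.33) and CMKLR2 (6.09 ± 0.225) did not differ beyond their spread either, and PTPRQ was lowest at 4.78 ± 0.581. With doxycycline alone NPPB again led, at 33.2 ± 8.18 CPM per kb, but CMKLR2 was next at 6.14 ± 0.142 and CDK18 last at 0.525 ± 0.0244. Within senescent cells with doxycycline, the second library was the higher one for all 7 genes.

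By a fixed level (under 0.1 CPM in both untreated proliferating libraries, at least 1 CPM in every library of both doxycycline groups), 34 of the 36110 silent genes behaved like this set, and 5 of the 7 were among them. CMKLR2 and PTPRQ lay just outside, with 0.250 and 0.451 CPM in their higher untreated library, and at a limit of 0.5 CPM the count was 83 genes with all 7 inside. Just inside the limit of 0.1 CPM were CDK18 with 0.0976 CPM and GJA5 with 0.0751 CPM. Counted separately, 38 silent genes were on with doxycycline alone, 26 in senescent cells and 129 with both treatments. Over the 34 genes the level with both treatments was a median of 1.83 times the sum of the single-treatment levels, with a range of 0.476 to 15.1 whose upper end is CXCR4.

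Partners of the 7 were read from lists of their pathways, beside a background of 12.6% called higher and 10.4% lower with doxycycline in proliferating cells and 22.6% and 23.8% in senescent cells (32.9% and 14.6% when scaled by total counts). In the natriuretic peptide system 2 of 11 tested genes rose and 1 fell with doxycycline in proliferating cells, and 3 rose and 3 fell in senescent cells. NPR1, the receptor named above for the NPPB peptide, had at most 3 counts in any group and did not pass the filter. NPR3, the clearance receptor that removes natriuretic peptides, was at 0.781 and 0.526 CPM in untreated proliferating cells and at 4.85 and 5.53 with doxycycline (log2 2.98, SE 0.20, adjusted p = 3.93e-08, edgeR). It rose again in senescent cells, from 4.81 and 5.04 to 13.2 and 15.6 CPM (log2 1.55, SE 0.16, adjusted p = 1.56e-06, edgeR). PDE5A, which breaks down the cyclic GMP made by natriuretic receptors, fell by 0.77 and 0.95 on the log2 scale in the 2 states (adjusted p = 0.000156 and 9.68e-06, edgeR). NPPA, the atrial peptide gene 9.68 kb from NPPB, stayed between 0.0280 and 0.512 CPM in all 8 libraries, with no call for doxycycline in either state.

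In the CXCL12 list no gene rose and 3 of 14 fell with doxycycline in proliferating cells, and 2 rose and 4 fell in senescent cells. Scaled by total counts, that last pair became 4 and 1. CXCL12, the ligand itself, moved opposite to its receptor: it had 8.51 and 8.36 CPM in untreated proliferating cells, 3.24 and 2.5 with doxycycline, 2.80 and 2.95 in senescent cells, and 0.458 and 0.475 with both. It fell by 1.56 (SE 0.18, adjusted p = 1.46e-05, edgeR) and by 2.61 (SE 0.23, adjusted p = 3.07e-07, edgeR) on the log2 scale. ACKR3, the scavenging CXCL12 receptor, was at 1.67 ± 0.171 CPM in senescent cells and 1.63 ± 0.146 with doxycycline, with no call. RGS16, a brake on G-protein signalling, had 3 to 10 counts in each of the other groups and 457 in senescent cells with doxycycline (5.50 and 6.74 CPM). Its rise there passed the test (log2 5.35, SE 0.50, adjusted p = 1.32e-06, edgeR; count ratio 41.8, 22.5 to 87.7).

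The chemerin list is short, and its other receptor went the opposite way to CMKLR2. CMKLR1, the main signalling receptor of chemerin, had 72 counts in untreated proliferating cells and 1 with doxycycline, and 168 in senescent cells and 2 with doxycycline. The counts were 66.9 times (11.6 to 2680) and 91.9 times (25 to 765) higher without the drug, and both falls passed the test (adjusted p = 2.22e-05 and 3.35e-07, edgeR). CCRL2, which binds chemerin without signalling, was between 0.970 and 1.67 CPM in all 8 libraries and was not called with doxycycline. Chemerin's own gene, RARRES2, did not pass the filter on low counts.

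**Figure D4:**
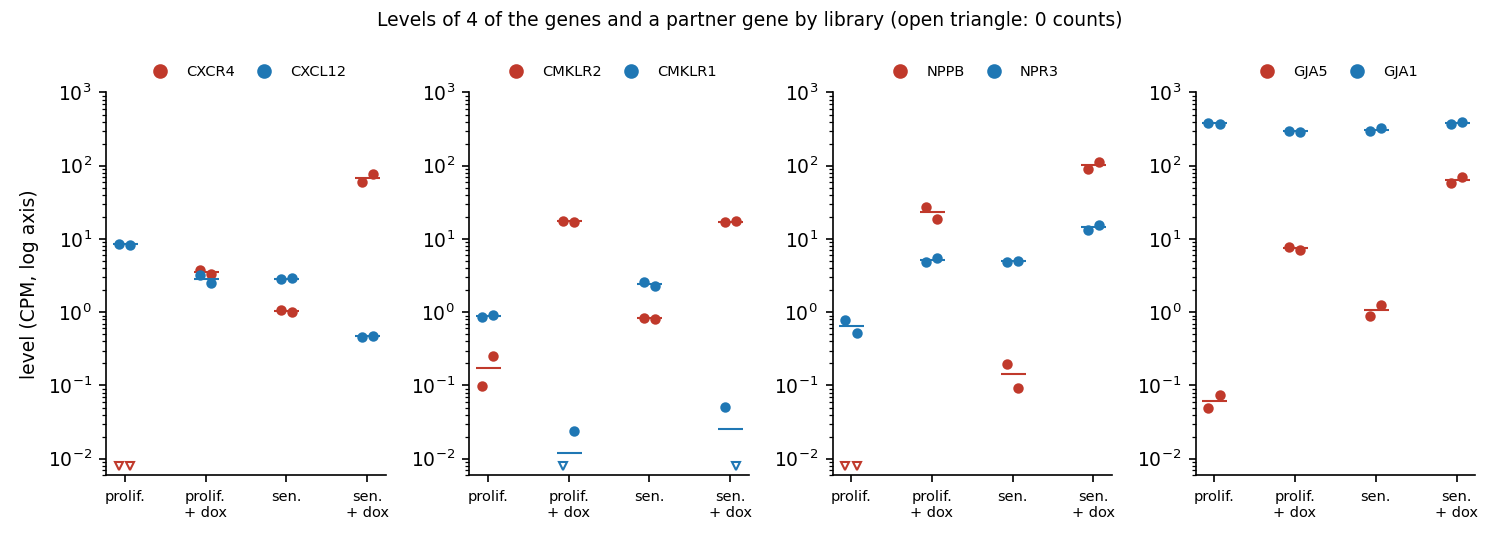
Levels in CPM (log axis) by library for CXCR4 with its ligand CXCL12, CMKLR2 with the chemerin receptor CMKLR1, NPPB with the clearance receptor NPR3, and GJA5 with the main fibroblast connexin GJA1; bars are group means and open triangles 0 counts. CXCL12 and CMKLR1 are lower in the doxycycline groups where CXCR4 and CMKLR2 are higher, and NPR3 rises with NPPB.

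In the list of connexins and pannexins, 2 of 10 tested genes other than GJA5 rose and 2 fell with doxycycline in proliferating cells. In senescent cells 4 rose and 3 fell (6 and 3 when scaled by total counts). The 10 include TJP1, which is neither a connexin nor a pannexin and was not called with doxycycline in the main fit. GJA1, connexin 43 and the usual gap-junction protein of fibroblasts, was at 385 and 376 CPM in untreated proliferating cells and 301 and 289 with doxycycline, and at 302 and 322 in senescent cells and 366 and 389 with doxycycline. It fell in the first pair (log2 -0.37, SE 0.08, adjusted p = 0.00346, edgeR) and rose in the second (log2 0.28, SE 0.08, adjusted p = 0.0109, edgeR). The fall missed the threshold with the description number as a replicate block and when proliferating replicate 1 was left out (highest adjusted p = 0.0621, edgeR), and the rise missed it without senescent replicate 1 or senescent replicate 2 with doxycycline (highest 0.0878, edgeR). GJB5, another connexin, went from 0.0488 and 0 CPM to 1.03 and 0.509 CPM in proliferating cells (adjusted p = 0.000201, edgeR). PANX2, a pannexin, rose in both states, by log2 1.44 and 2.43 (adjusted p = 0.00223 and 2.34e-05, edgeR).

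SERPINA9 lies in the serpin cluster of chromosome 14, and 3 other clade A serpins of the 12 on the list passed the filter. SERPINA12, also called vaspin and 11.1 kb from SERPINA9, was the only one of the 3 called with doxycycline in the main fit. It had no counts in untreated proliferating cells, 0.353 and 0.534 CPM with doxycycline (at least 12.2-fold higher), 0.420 and 0.912 in senescent cells, and 2.16 and 2.24 with both (log2 1.73, SE 0.37, adjusted p = 0.00156, edgeR). SERPINA1 and SERPINA3, the antitrypsin and antichymotrypsin genes, were under 0.5 CPM in all 8 libraries with no call for doxycycline in the main fit. By limma-voom, or with only the 4 libraries compared in the fit, SERPINA3 was called lower in senescent cells.

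Of 14 other receptor-type tyrosine phosphatases tested, 4 rose and 2 fell with doxycycline in proliferating cells, and 2 rose and 5 fell in senescent cells (4 and 4 when scaled by total counts). PTPRR, a phosphatase that acts on MAP kinases, had no counts in untreated proliferating cells and 1.5 and 1.65 CPM with doxycycline (at least 42.7-fold higher). In senescent cells it had 0.308 and 0.0304 CPM, and 1.07 and 1.34 CPM with doxycycline (log2 2.77, SE 0.54, adjusted p = 0.000826, edgeR). PTPRB, an endothelial phosphatase of the same fibronectin-repeat subfamily as PTPRQ, was at 1.23 ± 0.187, 3.13 ± 0.178, 1.5 ± 0.181 and 5.31 ± 0.352 CPM and rose in both states (adjusted p = 0.000316 and 4.97e-06, edgeR).

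The list around CDK18 held related kinases, cyclins and CDK5 activators. Of its 10 tested genes, 1 rose and 3 fell with doxycycline in proliferating cells. In senescent cells 1 rose and 4 fell (3 and 2 when scaled by total counts). In the main fit the riser was CCNE1 in proliferating cells and CCNY in senescent cells, both cyclins. No kinase of the list other than CDK18 was called higher there. CDK16 and CDK17, the other PCTAIRE kinases, were not called in either state, with levels of 138 to 183 and 33.6 to 36.3 CPM as group means; scaled by total counts, CDK17 was called higher in senescent cells. CDK15, a PFTAIRE kinase, fell from 55.6 and 51.9 to 32.7 and 38.9 CPM in senescent cells (log2 -0.59, SE 0.09, adjusted p = 7.79e-05, edgeR). CDK14, the other PFTAIRE kinase, fell by 0.31 on the log2 scale there (adjusted p = 0.0111, edgeR), a call lost when scaled by total counts and without replicate 2 of either senescent group (highest adjusted p = 0.255, edgeR).

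Within 100 kb of the 7 lay 51 genes of the table, 21 of them protein-coding, and 15 of those passed the filter; the distance was chosen after the values were seen. With doxycycline in senescent cells 2 of the 15 rose and 3 fell, beside 22.6% and 23.8% of all tested genes, with changes from -0.92 for PLOD1 to 1.73 for SERPINA12. The other riser was ZDBF2, 56.8 kb from CMKLR2 (log2 0.45, SE 0.14, adjusted p = 0.0125, edgeR), a call lost without senescent replicate 1 or either senescent library with doxycycline (highest adjusted p = 0.152, edgeR). CXCR4 had no protein-coding neighbour in that distance. The nearest tested neighbour of any kind was LOC105370635, a long non-coding RNA gene 0.079 kb from SERPINA9. It had 0 counts in untreated proliferating cells, 1 with doxycycline, 26 in senescent cells and 59 with both treatments. Its change with doxycycline in senescent cells was not called (log2 1.05, SE 0.47, adjusted p = 0.0807, edgeR). There were 4 annotated genes that overlapped a member, and their highest group mean was 0.173 CPM; how reads in the overlaps were assigned was not tested.

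**Figure D5:**
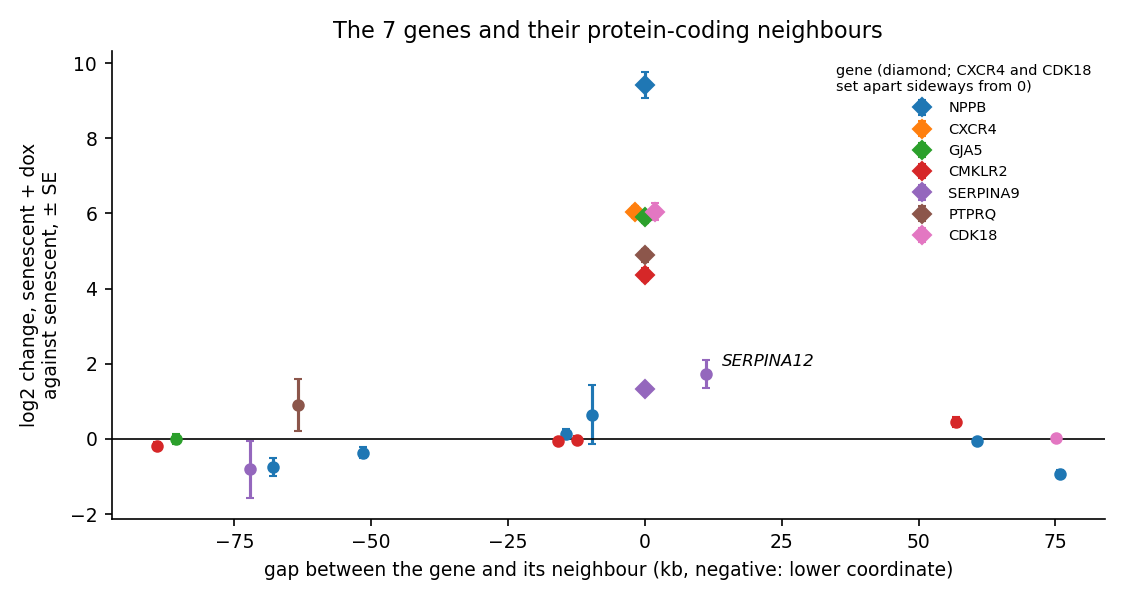
Log2 change with doxycycline in senescent cells (± SE) of the 7 genes, drawn as diamonds, and of their 15 tested protein-coding neighbours within 100 kb, drawn as circles in the colour of the gene they lie near, against the gap in kb. Beside the diamonds, from 1.32 to 9.42, the neighbours lie between -0.92 and 1.73.

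Markers of the cells in which these genes are usually described were mostly absent, and their part in the results was not tested. Of 12 cardiomyocyte markers 1 or 2 reached 1 CPM in a group, MYH6 had 0 counts in every group, and their summed level ran from 14.9 to 21.6 CPM. TNNT2 was at 1 CPM or more in both doxycycline groups. Of 12 germinal-centre B-cell markers 5 or 6 reached 1 CPM, among them MME and BCL6, and the summed level was 181 to 263 CPM in proliferating and 411 to 455 CPM in senescent libraries. Among 12 leukocyte markers only CD68 reached 1 CPM and CD3D had no counts, with sums of 53.2 to 73.2 CPM in 6 libraries and 124 and 170 CPM in senescent cells without doxycycline. Endothelial markers at 1 CPM or more numbered 3 to 5 of 12, always including FLT1 and TEK, with CLDN5 at 0 in 3 of the 4 groups and sums of 69.7 to 238 CPM, highest in senescent cells without doxycycline. Of 12 hair-cell markers 1, SLC26A5, reached 1 CPM, ATOH1 and LHFPL5 had no counts, and the sums were 6.11 to 8.39 CPM. Epithelial markers reached 1 CPM only in senescent cells with doxycycline, where CDH1 and KRT14 of 12 did, and their sum was 1.33 to 1.97 CPM elsewhere and 3.49 to 3.72 CPM there. In bulk RNA, more cells expressing a gene and more RNA per cell cannot be told apart.

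The genes whose profile over the 8 libraries was most like each of the 7 were ranked by Pearson's r of log2 CPM. They were taken from 2698 tested genes with a range of at least 2 on the log2 scale. Left out were the 7 themselves and LOC, LINC, accession-like or hyphenated names, so many non-coding genes could not appear. The 8 libraries form 4 groups of replicates, so r mostly reflects the order of 4 group means, and it is given as a description. Nearest to NPPB were DUXA (0.998), SYNPO2L (0.995) and STXBP6 (0.995). Nearest to CXCR4 were MAP6 (0.997), SEMA7A (0.996) and BLCAP (0.995). For GJA5 they were NPAS1 (0.997), TRIM55 (0.996) and SLAMF7 (0.995). For CDK18 they were SGK1 (0.993), ZFHX2 (0.993) and SEMA7A (0.993), and for PTPRQ they were PRKCE (0.997), STXBP6 (0.995) and GSG1 (0.992). CMKLR2 was nearest to TRB (0.996), ST3GAL6 (0.994) and LRRC7 (0.993), and SERPINA9 to KCTD4 (0.996), OR51M1 (0.993) and HDAC9 (0.991). SEMA7A was thus shared by CXCR4 and CDK18, and STXBP6 by NPPB and PTPRQ. Among the 7 themselves r ran from 0.683 for NPPB with SERPINA9 to 0.991 for GJA5 with PTPRQ.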

How the data were processed

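Total RNA was extracted by acid phenol and sequenced from a stranded mRNA kit on an Illumina sequencer, per the labels' protocols. The authors deposited raw read counts per gene for the 8 libraries in 1 table of 54628 genes. Trimmomatic 0.36, HISAT2 2.1.0, featureCounts 1.6.3 and the build hg38 are named in the submitters' processing notes; which settings, annotation or strand rule the counting used is not given in the sources used here, and reads of a gene and an antisense partner may not have been separated. Library totals of 33627708 to 39692162 counts set the depth, and the bounds and counting intervals (95%, exact) cover counting error only.

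The members and the gene lists were chosen with earlier results of these data known. Named are the 7 genes, YAP1, the 3 most alike genes per member, and list genes where a list is described; those given in full among the list genes, and the neighbours, were singled out after their values were seen. Counts were filtered (filterByExpr, 17155 genes kept), scaled by TMM and fitted over all 8 libraries in edgeR 4.0.16 (R 4.3.3; robust quasi-likelihood test, 4 groups, no covariate, Benjamini-Hochberg over all tested genes, 0.05). SE is the size of the log2 change divided by the square root of F. Intervals beside fitted fold changes come from this SE by a normal approximation and can be too narrow at low counts. CPM uses TMM factors (0.902 to 1.05). Fitted changes of genes with 0 counts in a group are not printed in the main text; a bound from 3 counts over the group is given. Log2 CPM for likeness used a prior count of 2. Alternatives were DESeq2 1.42.0, limma 3.58.1 (voom), other scalings, filters, a replicate block and each library left out. The fit was tested on simulated data. Symbols were matched to RefSeq for 51616 of 54628 genes; all 225 list entries were found, 1 by an older symbol.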

Additional observations from a re-analysis of the deposited data

Results flagged for a closer look

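For 11 genes outside the 7 that the lists or the neighbourhood hold, the doxycycline effect differed between senescent and proliferating cells by edgeR's test of the difference itself (adjusted over all tested genes). The values are changes in senescent minus changes in proliferating cells on the log2 scale. CXCL12 had -1.05 (SE 0.30, adjusted p = 0.0221), its fall being steeper in senescent cells. RGS16 had 5.64 (SE 1.47, adjusted p = 0.0160), with 3 to 10 counts in each of the 3 lower groups. NPR3 had -1.44 (SE 0.26, adjusted p = 0.00142) and ANKRD1 -3.00 (SE 0.18, adjusted p = 9.59e-08), both rising in each state. GJB5 had -3.47 (SE 0.95, adjusted p = 0.0179). SERPINA12 had -5.35 (SE 1.34, adjusted p = 0.0120) and PTPRR -6.12 (SE 1.57, adjusted p = 0.0141); both had 0 counts in untreated proliferating cells, so these fitted values depend on the prior count. PLOD1, a neighbour of NPPB, had -0.53 (SE 0.14, adjusted p = 0.0121).

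In 3 genes the direction itself differed. GJA1 had a difference of 0.64 (SE 0.11, adjusted p = 0.00106), from -0.37 in proliferating to 0.28 in senescent cells; its call in each state was lost in 2 of the 17 alternatives. CCNE1, cyclin E1, had -0.93 (SE 0.18, adjusted p = 0.00233), from 0.48 to -0.45, with group means of 6.42 CPM in proliferating cells and 8.98 with doxycycline, and of 11.8 in senescent cells and 8.64 with doxycycline; its rise in proliferating cells was lost with the description number as a replicate block and without replicate 1 of either proliferating group (highest adjusted p = 0.211, edgeR), and its fall in senescent cells when scaled by total counts and without replicate 1 of either senescent group (highest adjusted p = 0.108, edgeR). IGFBP3, on the YAP target list, had -0.80 (SE 0.17, adjusted p = 0.00358), from 0.36 to -0.44, with 608 and 780 CPM in the first pair and 12503 and 9229 CPM in the second. Its rise in proliferating cells was lost with DESeq2's size factors, with the description number as a replicate block and without any 1 of the 4 proliferating libraries (highest adjusted p = 0.313, edgeR), and its fall without replicate 1 of either senescent group (highest adjusted p = 0.112, edgeR).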

How the results depend on the processing

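Over 17 alternatives, the direction and call of each of the 7 genes with doxycycline in senescent cells, and of 6 of them between the induced groups, did not change; CMKLR2 between the induced groups ranged from -0.05 to 0.06 and was never called. NPPB in senescent cells ranged from 8.99 to 10.07 and SERPINA9 from 1.24 to 1.49. The genes were chosen for expression in the induced groups, which every alternative reused, so this steadiness describes them and does not support the choice. Genes called with doxycycline in proliferating cells numbered 3938 and ranged from 2011 to 4155 without 1 library, with 2011 without proliferating replicate 2 and 2099 without replicate 1. Same-numbered libraries had deviations that correlated by -0.0121 to 0.159, which does not settle whether the numbers pair them. With the title number as a replicate block the 4 comparisons called 4355, 8281, 10344 and 9746 genes (3938, 7951, 10155 and 9519 without), and with the description number 2353 in the first. The 34 genes silent and then on became 83 with silence under 0.5 CPM, 58 with on at 0.5 CPM and 13 at 3 CPM; the limits themselves set these. Scaling by total counts moved the median of all genes by 0.169 with doxycycline in senescent cells and -0.171 with bleomycin alone, and the share of calls that were higher from 48.7 to 69.3% and from 50.3 to 37.1%. Group means of the 7 stayed within 1 SD in 27 of 28 cases with DESeq2's size factors and in 24 of 28 with total counts. For genes outside the 7 the alternatives were added after seeing the data: the calls of CDK14 (both states), CDK15 and PLOD1 (proliferating), GJB5 (senescent), GJA1, CCNE1, IGFBP3 and ZDBF2 were lost in 1 or more of them, and none reversed. Calls absent from the main fit appeared in 1 or more alternatives for CDK17 and SERPINA3 (senescent) and ZDBF2 (proliferating). Where a level rests on 10 counts or fewer, depth limits the ratio, as its counting interval shows.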

Other observations

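Among the 34 genes that were silent in untreated proliferating cells and on in both doxycycline groups, several outside the 7 were singled out after their values were seen. MFAP5, a protein of elastic microfibrils, had 0 counts in untreated proliferating cells and 3 in senescent cells, against 13.0 ± 0.469 CPM (SD, n = 2) with doxycycline and 85.7 ± 12.9 CPM with both treatments, 6.56 times the sum of the single-treatment levels. CSF2RB, the shared beta chain of the receptors for GM-CSF, interleukin-3 and interleukin-5, was at 0.0125 ± 0.0177, 3.06 ± 0.00115, 0.867 ± 0.238 and 20.5 ± 3.19 CPM, where the groups are untreated proliferating, then with doxycycline, senescent, and both treatments. KRT34, a hair keratin, was at 0.0494 ± 0.000911, 2.47 ± 0.504, 1.37 ± 0.595 and 15.1 ± 1.64 CPM. RIMS2, an active-zone scaffold of synapses, went the other way: 11.9 ± 2.09 CPM with doxycycline in proliferating cells and 5.68 ± 0.0939 CPM with both treatments, the lowest ratio to the sum in the set at 0.476. DYSF, the membrane-repair protein dysferlin, was at 7.88 ± 0.116 CPM with doxycycline and 10.0 ± 2.36 CPM with both, a difference between the induced groups that was not called (log2 0.35, SE 0.18, adjusted p = 0.117, edgeR).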
